A study of Mus musculus with 10 samples.

Results

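Nuclear-encoded subunits of the mitochondrial respiratory chain were followed gene by gene in the lungs of wild-type mice after bleomycin, a drug that breaks DNA and is used to bring on lung fibrosis. The members were the protein-coding genes of the deposited lung table whose symbol begins with Nduf followed by a, b, c, s or v and a digit, with Uqcr, with Cox and a digit from 4 to 8, or with Atp5, plus Sdha, Sdhb, Sdhc and Sdhd. That rule gave 86 of the 33347 genes in the table. Of these, 36 belong to complex I, 4 to complex II, 8 to complex III, 18 to complex IV and 17 to complex V, and 3 match by symbol without being a subunit (Cox7a2l, Ndufa4l2 and Cox5b-ps). Ndufa4, which carries a complex I name, was placed in complex IV, where it is known to reside. The rule passes over Ndufab1 of complex I and Cyc1 of complex III, whose values are given with the related genes.

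All mice carried the wild-type genotype and all had received bleomycin. The groups differed in the bone marrow cells injected, which had high activity of aldehyde dehydrogenase (ALDH) in 5 samples (ALDHbr) and low activity in the other 5 (ALDHdim). Lungs free of bleomycin, or injured but not injected with cells, were not analysed here, and each difference is therefore between the 2 kinds of injected cell. The labels state no dose, time, sex or age, and do not say that the samples of a group came from separate animals, so the p-values measure only the spread between these samples.

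The respiratory chain sits in the inner mitochondrial membrane. Complexes I and II pass electrons from NADH and succinate to ubiquinone, complex III passes them on to cytochrome c, complex IV hands them to oxygen, and complex V uses the proton gradient built on the way to make ATP. Apart from complex II, which is built wholly from nuclear genes, each complex combines subunits from the nucleus with a few encoded by mitochondrial DNA. The catalytic core is conserved from bacteria, and many small accessory subunits were added around it. In the lung, alveolar type 2 cells, ciliated cells and the cardiac-type muscle around pulmonary veins are rich in mitochondria.

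The promoters of these genes are known for sites of the factors NRF1, GABP, YY1 and ERR. RefSeq windows on GRCm38.p6, from 250 bases before to 50 bases after each start, were matched for 68 of the 86 members. The stretches shown are those of the genes the results turn on: the member of smallest p among the higher genes in complexes I, III and V (Ndufb4, Uqcr11 and Atp5k), an anchor of complex II (Sdhd), the widely expressed subunit 6a of complex IV (Cox6a1), and Atp5b, the catalytic subunit of complex V with a level among the steadiest of all. Capitals mark matches to NRF1 (GCGC and TGCGC with any base between them), GABP (CCGGAAG), ERR (AAGGTCA) or the CCAAT box (CCAAT), on either strand. None of the marked matches overlap. Each stretch is cut from the 250 bases before the start, so matches that reach past the start are not shown. Each is written 5′ to 3′ on the strand of its gene.
Ndufb4, chr16:37654369-37654571, minus strand: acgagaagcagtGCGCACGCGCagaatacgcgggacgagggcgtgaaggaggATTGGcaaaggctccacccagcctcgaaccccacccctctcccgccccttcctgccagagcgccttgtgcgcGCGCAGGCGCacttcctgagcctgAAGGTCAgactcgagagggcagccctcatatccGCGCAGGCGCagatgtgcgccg
Sdhd, chr9:50603877-50603940, minus strand: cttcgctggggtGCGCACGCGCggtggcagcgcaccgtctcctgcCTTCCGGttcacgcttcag
Uqcr11, chr10:80406869-80406899, minus strand: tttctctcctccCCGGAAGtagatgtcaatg
Cox6a1, chr5:115348959-115349132, minus strand: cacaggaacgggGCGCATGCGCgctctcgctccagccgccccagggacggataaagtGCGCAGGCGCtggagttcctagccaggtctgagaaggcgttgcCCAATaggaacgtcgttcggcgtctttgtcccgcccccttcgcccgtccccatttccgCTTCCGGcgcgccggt
Atp5k, chr5:108434428-108434461, minus strand: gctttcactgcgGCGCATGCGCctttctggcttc
Atp5b, chr10:128083073-128083248, plus strand: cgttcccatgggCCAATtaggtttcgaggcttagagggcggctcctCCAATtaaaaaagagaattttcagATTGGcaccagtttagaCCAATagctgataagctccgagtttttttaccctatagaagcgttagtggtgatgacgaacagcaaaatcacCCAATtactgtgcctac

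The Ndufb4 stretch held the NRF1 letters 3 times and the Cox6a1 stretch held them 2 times. The Atp5b stretch held none and carried the CCAAT letters 5 times. The whole windows of Atp5k and Sdhd also held the ERR letters 1 time each, and that of Atp5k the GABP letters 1 time. Counted over the whole window, the NRF1 letters occurred 2 times for Atp5k and 3 times for Cox6a1. Over the members' 73 windows (some genes have more than 1 start), NRF1 letters occurred in 24.7%, against 9.9% of the 10897 windows of tested genes and 4.6% of all 32851 windows. YY1 letters (AAGATGGC) occurred in 13.7% of members' windows, 4.3% of windows of tested genes and 2.7% of all windows. ERR letters occurred in 11%, 3.1% and 4.7% of the same sets, and GABP letters in 23.3%, 17.1% and 8.9%. For the CCAAT letters the shares were closer, at 42.5%, 36.8% and 37.4%, and for TATAAA they were 12.3%, 7.3% and 13.6%. By complex, NRF1, GABP or YY1 letters occurred in 18 of 33 windows of complex I, 3 of 3 of complex II, 3 of 5 of complex III, 3 of 13 of complex IV and 12 of 18 of complex V. A match is a description of letters in the window and does not show binding.

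RNA was read at its 3′ ends by BRB-seq, in which each sample receives a barcode during reverse transcription and the samples are then pooled. Library totals ran from 588063 counts in ALDHbr 2 to 2002947 in ALDHdim 2, with ALDHbr 3 second lowest at 854577. Genes with any count numbered 24722 in ALDHbr 3 and 25377 in ALDHbr 5. In the other libraries they ran from 17044 in ALDHbr 2 to 21209 in ALDHbr 4. The cause was not tested, and ALDHbr 3 and ALDHbr 5 were left out together in an alternative run. Levels are given as CPM, counts scaled to a common library size after TMM adjustment. A 3′ count does not grow with transcript length, so CPM was not divided by length, and levels of different genes are compared in CPM. Together the members took 1.18% to 1.54% of a library's counts. In tissue, fewer cells of a type and less RNA per cell cannot be told apart. The 10 libraries held lung epithelial transcripts at high level, with club cell markers summing to 16430 to 54620 CPM and alveolar type 2 markers to 20850 to 49540 CPM.

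No respiratory chain gene differed between the groups past the threshold. The comparison asks whether the kind of injected marrow cell was followed by a different level of these transcripts. Of the 86 members, 81 had counts enough to be tested, among 10844 genes, and 0 of them had an adjusted p under 0.05 (edgeR's quasi-likelihood test with Benjamini-Hochberg adjustment over all 10844 genes, smallest adjusted p = 0.999). The same was so of all genes, with 0% past the threshold. DESeq2 and limma-voom also placed 0 members past it. At an unadjusted p under 0.05 there were 7 members higher in ALDHbr (8.64% of 81), where 2.13% of all tested genes met this in that direction, and 1 member lower (1.23%), where 1.58% of all tested genes did; in either direction it was 3.71% of all tested genes. No member had groups that do not overlap, in either direction, against 0.249% of all tested genes with ALDHbr higher and 0.286% with ALDHbr lower.

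The estimates lay on the ALDHbr side of 0 for 65 of the 81 tested members (80.2%), with a median log2 fold change (ALDHbr over ALDHdim) of 0.14, whereas 51.9% of all tested genes were higher and their median was 0.01. In complex I 30 were higher and 6 lower (median 0.14), in complex III 6 and 2 (0.06), in complex IV 13 and 1 (0.175), and in complex V 13 and 4 (0.16). Complex II stood at 2 higher and 2 lower, with a median of −0.02. These counts are read as a description, since the members were not drawn independently and share their libraries. Every one of the 81 intervals at the 95% level lay within a 2-fold difference, and 58 lay within 1.5-fold, so a larger difference lies outside the interval of each of those genes. For all tested genes the numbers were 9818 and 5274 of 10844.

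**Figure D1:**
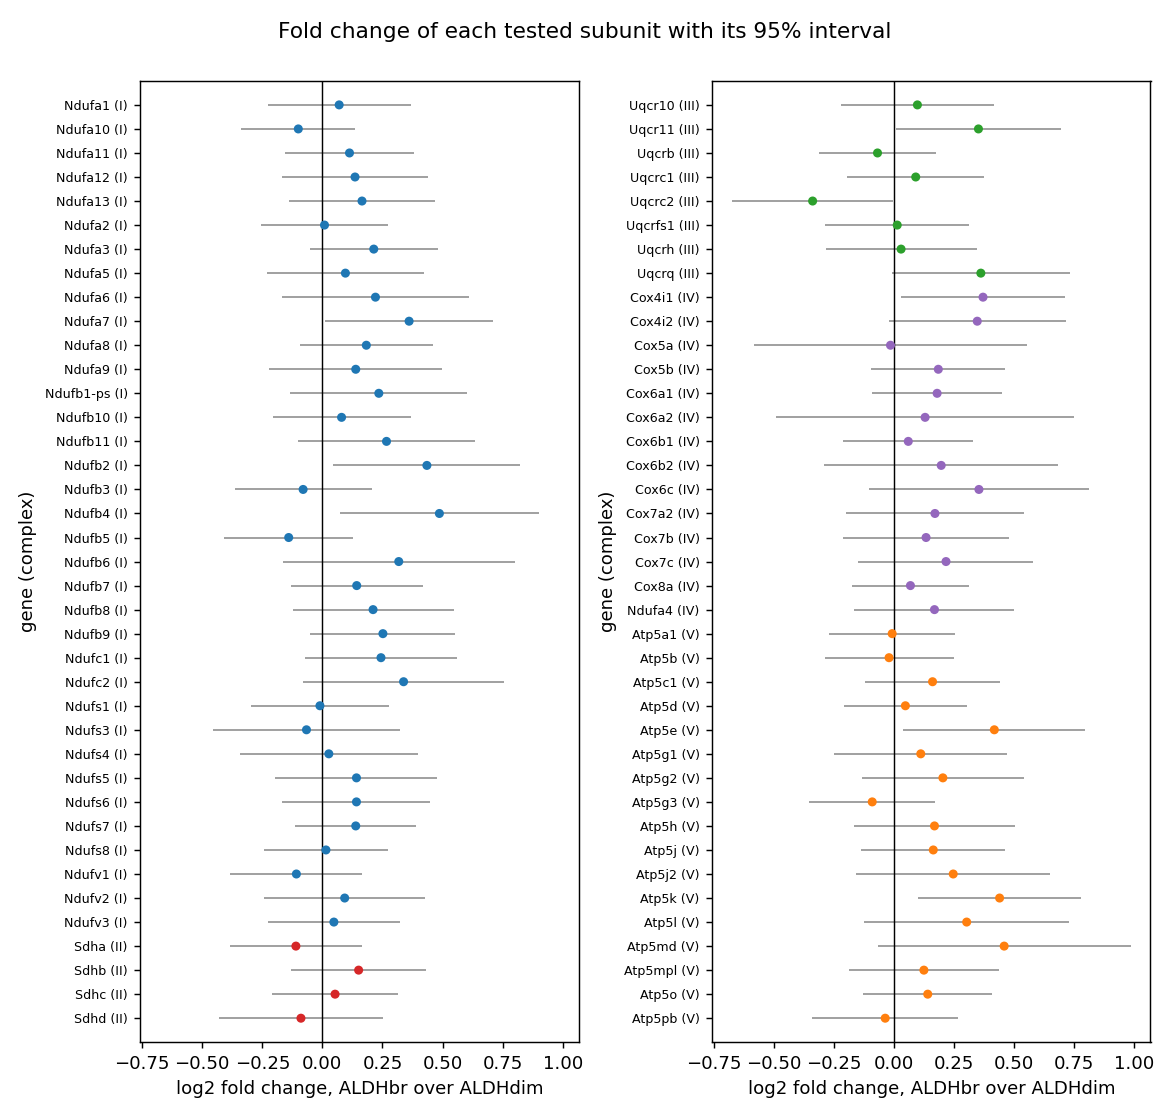
Log2 fold change (ALDHbr over ALDHdim) of 78 tested subunits, 1 per line and coloured by complex, with bars for the 95% interval of edgeR's fit. Most points lie right of 0, by at most 0.49, and the longest bars belong to genes of low level such as Cox6a2 and Cox5a.

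Averaged over the members, the libraries of each group spanned a wider range than the gap between the group means. A score per library was taken as the mean over tested members of log2 CPM after subtracting each gene's own mean. It was −0.19, 0.27, 0.19, −0.01 and 0.06 in ALDHbr 1 to 5, and −0.11, −0.19, 0.06, −0.04 and −0.03 in ALDHdim 1 to 5. ALDHbr thus held the 2 highest libraries and, with ALDHdim 2, the lowest, and the groups overlapped. The group means were 0.06 ± 0.18 and −0.06 ± 0.09 (SD, n = 5 each). Of the 81 members, 43 had their highest value in ALDHbr 2 (53.1%, against 18.4% of all tested genes) and 19 in ALDHbr 3 (23.5%, against 16%). The lowest value lay in ALDHbr 1 for 28 members (34.6%, against 10.7% of all tested genes) and in ALDHdim 2 for 19 (23.5%, against 9.5%).

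Complexes I, III, IV and V had their high and low libraries in common, and complex II had others. Complex I scored −0.19, 0.36, 0.19, −0.03 and 0.005 in ALDHbr 1 to 5 and −0.05, −0.18, 0.04, −0.07 and −0.07 in ALDHdim 1 to 5. Complex V scored −0.27, 0.29, 0.24, 0.01 and 0.13, then −0.16, −0.275, 0.07, −0.04 and 0.01. In both, ALDHbr 2 was highest, ALDHbr 3 second, and ALDHbr 1 and ALDHdim 2 lowest. Complex III ran from −0.22 in ALDHdim 2 to 0.21 in ALDHbr 2, and complex IV from −0.20 in ALDHdim 2, with ALDHdim 1 next at −0.19, to 0.215 in ALDHbr 3. Complex II scored −0.08, 0.05, −0.11, 0.04 and 0.07, then 0.01, −0.09, −0.06, 0.16 and 0. Its lowest library was ALDHbr 3 and its highest ALDHdim 4, over a range of 0.26, against 0.55 for complex I, 0.43 for complex III, 0.41 for complex IV and 0.56 for complex V. Complex II has only 4 genes, so its score rests on few values.

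**Figure D2:**
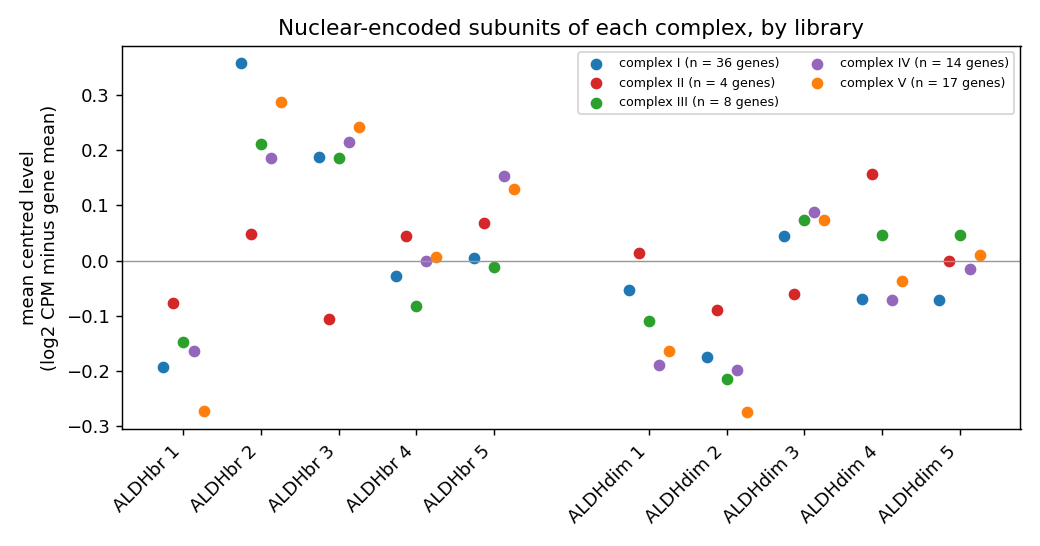
Mean centred log2 CPM of the tested subunits of each complex, 1 point per complex in each of the 10 libraries. Complexes I, III, IV and V are high in ALDHbr 2 and ALDHbr 3 and low in ALDHbr 1 and ALDHdim 2, while complex II peaks in ALDHdim 4 at 0.16.

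The order of the scores lay close to the order of sequencing depth, read in reverse. The 2 shallowest libraries, ALDHbr 2 and ALDHbr 3, had the highest scores, and the deepest, ALDHdim 2, shared the lowest. ALDHdim 5, second in depth at 1817519 counts, had a score of −0.03, while ALDHbr 1, with 1522283 counts, shared the lowest score. ALDHdim 4, with 1181037 counts, was shallower than ALDHdim 3 and ALDHbr 5 and yet scored below them, at −0.04. The orders were thus not the same throughout. Depth per library and the members' level move together here, and the part of depth in the result was not tested. With ALDHbr 2 left out, 57 of the 81 members were higher, the median was 0.06 and 1 member was higher at an unadjusted p under 0.05. With ALDHbr 1 left out these were 67, 0.20 and 22, and 0 members passed the threshold in either case. In either direction, members at an unadjusted p under 0.05 numbered 8 of 81 with every library, 2 without ALDHbr 2 and 23 without ALDHbr 1. Such genes numbered 402 of all 10844 tested with every library, 406 of 11080 without ALDHbr 2 and 1141 of 11024 without ALDHbr 1. The rise among the members without ALDHbr 1 thus came with a rise over all genes, while their fall without ALDHbr 2 did not come with a fall.

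**Figure D3:**
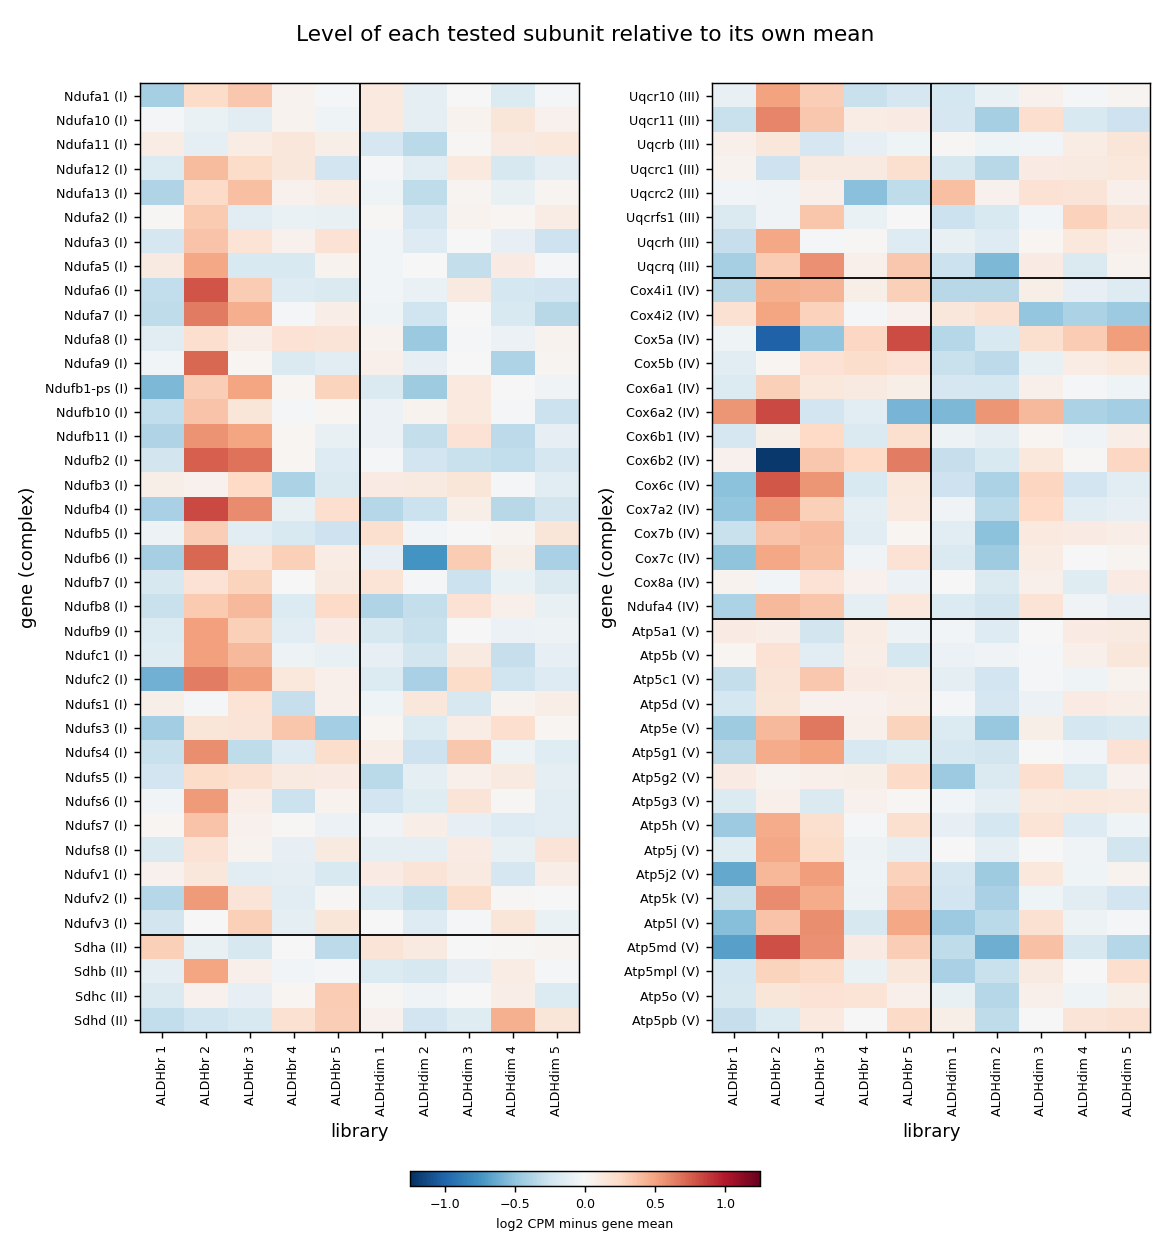
Log2 CPM of each of 78 tested subunits in each library, less the gene's own mean over the 10 libraries; rows are genes by complex, columns are libraries, red is above the mean and blue below. The ALDHbr 2 and ALDHbr 3 columns are red for most accessory subunits, and the rows of catalytic subunits such as Atp5a1 and Atp5b stay pale.

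The core subunits of complex I had a score range of 0.32 between libraries, and they differed among themselves in spread. The nuclear core subunits carry the flavin and the iron-sulfur clusters that take electrons from NADH to ubiquinone. Ndufs1, the largest iron-sulfur subunit, stood at 62.7, 58.7, 67.3, 48.8 and 62.5 CPM in ALDHbr libraries 1 to 5 and 57.5, 66.1, 51.9, 61.5 and 63.2 CPM in ALDHdim libraries 1 to 5. Its highest library was ALDHbr 3 and its lowest ALDHbr 4, with the groups overlapping throughout, and its log2 fold change was −0.01 (SE 0.136) with an interval of −0.30 to 0.28. Ndufv1, which binds the flavin that oxidises NADH, stood at 67.8, 72.4, 59.5, 60.6 and 57.5 CPM in ALDHbr libraries 1 to 5 and 70.3, 73.15, 70.6, 56.4 and 69.2 CPM in ALDHdim libraries 1 to 5. It was lowest in ALDHdim 4 and ALDHbr 5, and its log2 fold change was −0.11 (SE 0.13). Ndufv2, an iron-sulfur subunit beside it, ranged over 148 to 274 CPM and had a log2 fold change of 0.09 (SE 0.159).

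Of the core subunits that line the way to ubiquinone, Ndufs7 ranged over 103 to 147 CPM, highest in ALDHbr 2, and its log2 fold change was 0.14 (SE 0.119). The other iron-sulfur subunit there, Ndufs8, ranged over 104 to 133 CPM, with a log2 fold change of 0.015 (SE 0.121). Ndufs3 was less abundant, at 24.7 to 42.5 CPM, with a log2 fold change of −0.07 (SE 0.185). Ndufv2 and Ndufs3 had an SD of log2 CPM of 0.26 and 0.25, above the median of 0.23 over all members.

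The score of the accessory subunits of complex I varied more. Of 29 tested, 26 were higher and 3 lower, the median was 0.14, and the score ranged over 0.61, from −0.21 in ALDHbr 1 to 0.395 in ALDHbr 2. Ndufb4, a subunit of the membrane arm with the smallest unadjusted p of the complex, stood at 121, 284, 241, 150.3 and 186 CPM in ALDHbr libraries 1 to 5 and 125, 133, 168, 126 and 137 CPM in ALDHdim libraries 1 to 5. Its ALDHbr values spread from below the lowest ALDHdim library to above the highest, with ALDHbr 2 and ALDHbr 3 on top. The log2 fold change was 0.49 (SE 0.195) with an interval of 0.07 to 0.90 and an adjusted p of 0.999 in edgeR's quasi-likelihood test with Benjamini-Hochberg adjustment. Ndufc2, the most abundant complex I member, stood at 180.5, 424, 393, 299 and 286 CPM in ALDHbr libraries 1 to 5 and 243.5, 206, 321, 229.9 and 244 CPM in ALDHdim libraries 1 to 5. Its lowest value was in ALDHbr 1 and its highest in ALDHbr 2, so the whole range lay within the ALDHbr group, and its log2 fold change was 0.34 (SE 0.197).

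On the lower side, Ndufb5, another subunit of the membrane arm, stood at 124, 160.4, 119, 114 and 108 CPM in ALDHbr libraries 1 to 5 and 149, 127, 130.1, 133 and 144 CPM in ALDHdim libraries 1 to 5. The groups overlapped, with the highest value in ALDHbr 2, and the log2 fold change was −0.14 (SE 0.128). Ndufa7 and Ndufb2 also had an unadjusted p under 0.05; they were picked out after their values were seen. Ndufa7 had a mean of 261 ± 69.7 CPM over ALDHbr libraries and of 201.5 ± 20.1 CPM over ALDHdim libraries (SD, n = 5 each). Ndufb2 averaged 97.0 ± 32.0 and 69.5 ± 5.48 CPM, with 135 CPM in ALDHbr 2 and 128 CPM in ALDHbr 3 where the other 3 of the group held 68.4 to 81.8 CPM. Ndufa10, in contrast, had the smallest spread of all 81 members, an SD of log2 CPM of 0.097, and ranged over 90.55 to 110.3 CPM. Members with and without the NRF1, GABP or YY1 letters had similar scores: the 38 tested members with any of them scored −0.23 to 0.31 over the libraries and the 27 tested members whose windows lack them scored −0.23 to 0.24, with medians of 0.15 and 0.11.

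Complex II oxidises succinate and is also an enzyme of the citric acid cycle. Its flavoprotein Sdha stood at 177, 135, 125.5, 144 and 115 CPM in ALDHbr libraries 1 to 5 and 161, 156, 144, 146 and 148 CPM in ALDHdim libraries 1 to 5. ALDHbr 1 was highest and ALDHbr 5 lowest, an order unlike that of the accessory subunits of the other complexes, and the log2 fold change was −0.11 (SE 0.13). The iron-sulfur subunit Sdhb stood at 128, 196, 146, 136 and 138 CPM in ALDHbr libraries 1 to 5 and 124, 121, 130.1, 149 and 138 CPM in ALDHdim libraries 1 to 5. ALDHbr 2 stood above the other 9 libraries, and the log2 fold change was 0.15 (SE 0.133).

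The membrane anchors that bind ubiquinone and heme differed from Sdhb in their order. Sdhc stood at 158, 186, 167, 182.5 and 223 CPM in ALDHbr libraries 1 to 5 and 181, 174.5, 180.3, 189.5 and 159 CPM in ALDHdim libraries 1 to 5, highest in ALDHbr 5, with a log2 fold change of 0.05 (SE 0.124). Sdhd stood at 75.4, 78.2, 81.5, 106 and 115 CPM in ALDHbr libraries 1 to 5 and 96.5, 79.2, 84.2, 127 and 103 CPM in ALDHdim libraries 1 to 5. Its highest library was ALDHdim 4, followed by ALDHbr 5, and its 3 lowest were ALDHbr 1, ALDHbr 2 and ALDHdim 2, with a log2 fold change of −0.09 (SE 0.161). Each complex II gene thus peaked in a different library, and all 4 intervals lay within 1.5-fold.

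In complex III, the Rieske iron-sulfur protein Uqcrfs1, which takes electrons from ubiquinol, stood at 129, 141, 185, 138 and 146 CPM in ALDHbr libraries 1 to 5 and 121, 127, 142, 178 and 162 CPM in ALDHdim libraries 1 to 5. ALDHbr 3 and ALDHdim 4 were highest, and the log2 fold change was 0.01 (SE 0.142). The large matrix-side core proteins went to opposite sides of 0. Uqcrc1 ranged over 75.7 to 110.0 CPM with a log2 fold change of 0.09 (SE 0.135). Uqcrc2 stood at 37.4, 37.2, 40.1, 26.75 and 30.8 CPM in ALDHbr libraries 1 to 5 and 49.7, 39.85, 43.4, 42.9 and 40.1 CPM in ALDHdim libraries 1 to 5. It was the only member below 0 at an unadjusted p under 0.05, the ALDHbr values reached up to the lowest ALDHdim values, and the log2 fold change was −0.34 (SE 0.158) with an interval of −0.67 to −0.005 and an adjusted p of 0.999 (edgeR's quasi-likelihood test, Benjamini-Hochberg).

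Several small subunits of complex III were high in ALDHbr 2 and ALDHbr 3. Uqcr11, a small membrane subunit whose promoter stretch carries the GABP letters, stood at 170.4, 315, 261, 221 and 222 CPM in ALDHbr libraries 1 to 5 and 178, 155, 239, 181 and 172.5 CPM in ALDHdim libraries 1 to 5. ALDHbr 1 lay within the ALDHdim values and ALDHdim 3 within the ALDHbr values, and the log2 fold change was 0.35 (SE 0.163). Uqcrq, a small subunit near the ubiquinone site and the most variable of the complex, stood at 167, 278, 329.9, 232 and 282 CPM in ALDHbr libraries 1 to 5 and 185, 151, 238, 196 and 229 CPM in ALDHdim libraries 1 to 5. Its highest library was ALDHbr 3 and its lowest ALDHdim 2, and the log2 fold change was 0.36 (SE 0.176). Uqcrh, the hinge protein beside cytochrome c1 and the most abundant of the complex, stood at 304, 520.3, 369, 375 and 333 CPM in ALDHbr libraries 1 to 5 and 348, 333, 378, 407.5 and 389 CPM in ALDHdim libraries 1 to 5. ALDHbr 2 alone stood apart, and the log2 fold change was 0.03 (SE 0.149). Uqcrb, in contrast, had an SD of log2 CPM of 0.113 and ranged over 110.0 to 141 CPM.

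The nuclear subunits of complex IV surround a core encoded by mitochondrial DNA. Cox4i1, the common form of subunit 4, was the most abundant of all members and stood at 434, 749, 742.5, 579 and 676 CPM in ALDHbr libraries 1 to 5 and 435, 433, 581, 514.5 and 494 CPM in ALDHdim libraries 1 to 5. ALDHbr 2, ALDHbr 3 and ALDHbr 5 lay above every ALDHdim library, while ALDHbr 1 lay within the lower ALDHdim values. The log2 fold change was 0.37 (SE 0.161) with an interval of 0.03 to 0.71 and an adjusted p of 0.999 in edgeR's quasi-likelihood test with Benjamini-Hochberg adjustment. Cox5a had the widest spread of all members, an SD of log2 CPM of 0.50, and stood at 22.8, 11.7, 16.8, 28.3 and 41.65 CPM in ALDHbr libraries 1 to 5 and 18.5, 20.7, 27.2, 29.5 and 34.1 CPM in ALDHdim libraries 1 to 5. It was lowest in ALDHbr 2, the library in which most members were highest, at a level of few counts, and the log2 fold change was −0.015 (SE 0.268).

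Among the other widely expressed subunits, Cox6c ranged over 270.4 to 661 CPM and was lowest in ALDHbr 1 and highest in ALDHbr 2. Cox8a ranged over 152 to 195 CPM, with an SD of log2 CPM of 0.111. Ndufa4 ranged over 268.5 to 469 CPM, with a log2 fold change of 0.17 (SE 0.158). Cox6a1, whose promoter stretch holds 2 matches to the NRF1 letters, stood at 309, 428, 382, 378 and 366 CPM in ALDHbr libraries 1 to 5 and 302, 298, 364, 342 and 336 CPM in ALDHdim libraries 1 to 5. ALDHbr 1 lay with the lowest ALDHdim libraries and ALDHbr 2 stood highest, and the log2 fold change was 0.18 (SE 0.127). Of the 11 widely expressed complex IV genes, 10 were higher and 1 lower in ALDHbr.

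Several complex IV subunits come in isoforms from separate genes, and in these lungs the widely expressed form held the larger share in every pair. Cox4i2, the form of subunit 4 known from lung, made up 8.33 ± 2.14% of the counts of Cox4i1 and Cox4i2 together (SD over 10 libraries), from 5.66% in ALDHdim 3 to 11.4% in ALDHbr 1. The share was 8.36 ± 1.76% in ALDHbr and 8.30 ± 2.68% in ALDHdim (SD, n = 5 each). In CPM, Cox4i2 stood at 55.7, 68.5, 59.5, 48.0 and 50.8 CPM in ALDHbr libraries 1 to 5 and 53.95, 55.5, 34.9, 37.05 and 35.7 CPM in ALDHdim libraries 1 to 5. ALDHdim 3, 4 and 5 were lowest, ALDHdim 1 and 2 lay among the ALDHbr values, and the log2 fold change was 0.35 (SE 0.175). Markers of vascular pericytes and smooth muscle scored −0.63 to 0.43 in ALDHbr and −0.11 to 0.28 in ALDHdim, with sums of 331 to 801 CPM and 502 to 689 CPM; their part in the Cox4i2 level was not tested.

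The heart and skeletal muscle forms were low. Cox6a2 made up 5.70 ± 2.06% of subunit 6a, Cox7a1 2.74 ± 0.65% of subunit 7a and Cox8b 3.46 ± 1.59% of subunit 8 (SD over 10 libraries). Cox6a2 stood at 29.1, 35.2, 16.8, 18.1 and 13.3 CPM in ALDHbr libraries 1 to 5 and 13.5, 29.3, 26.4, 15.2 and 14.8 CPM in ALDHdim libraries 1 to 5. ALDHbr 1, ALDHbr 2, ALDHdim 2 and ALDHdim 3 were high and the other 6 libraries low, with a log2 fold change of 0.13 (SE 0.293). The 12 markers of cardiac-type muscle around pulmonary veins summed to 215 to 428 CPM in ALDHbr and 264 to 429 CPM in ALDHdim, and none of the 12 was at 0 in all libraries. By library that sum was 369.9, 428, 256, 238 and 215 CPM in ALDHbr 1 to 5 and 264, 392.5, 424, 429 and 408 CPM in ALDHdim 1 to 5; its part in the Cox6a2 level was not tested. Of the 8 tested cardiac-type muscle markers, 1 was higher in ALDHbr and 7 lower, with a median log2 fold change of −0.40. Among them 3 were lower at an unadjusted p under 0.05, where 1.58% of all tested genes were, and 0 passed the threshold. Skeletal muscle markers summed to only 8.24 to 15.8 CPM.

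The testis forms differed among themselves. Cox6b2 made up 8.62 ± 2.11% of subunit 6b and stood at 23.4, 9.78, 28.5, 26.75 and 34.99 CPM in ALDHbr libraries 1 to 5 and 18.5, 19.7, 24.7, 22.7 and 26.9 CPM in ALDHdim libraries 1 to 5. ALDHbr 2 was lowest and ALDHbr 5 highest, with a log2 fold change of 0.20 (SE 0.23). Cox7b2 made up 0.37 ± 0.38% of subunit 7b, with 10 counts over all libraries, and Cox8c had 1 count in all. Genes of sperm summed to at most 3.88 CPM in any library.

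**Figure D4:**
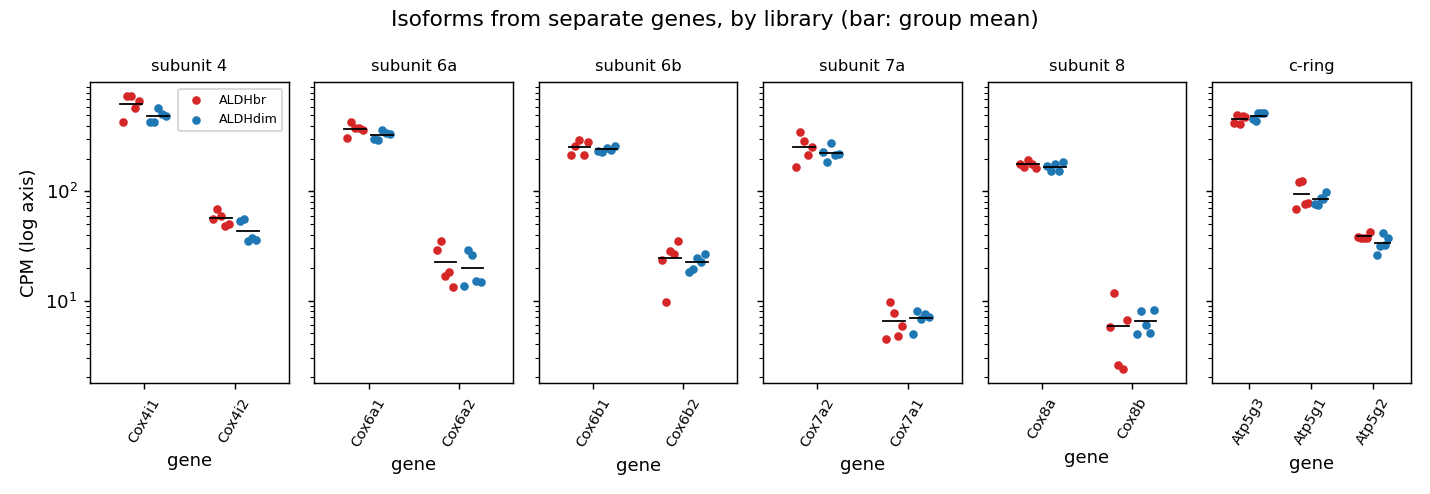
CPM on a log axis of isoforms from separate genes in the 10 libraries, 1 panel per subunit, with points for libraries (ALDHbr red, ALDHdim blue) and a bar at each group's mean. In each panel 1 gene lies far above the others, and the red and blue points overlap for every gene.

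Complex V consists of the F1 head that makes ATP and the membrane part Fo joined by stalks. The 5 tested genes of the head had a score range of 0.42, from −0.22 in ALDHdim 2 to 0.19 in ALDHbr 2, and its alpha and beta subunits varied less than most members, with an SD of log2 CPM of 0.12 for each against a median of 0.23 over all members. Atp5a1, its alpha subunit, stood at 434, 428, 345, 431 and 388 CPM in ALDHbr libraries 1 to 5 and 396, 363, 407, 435 and 438 CPM in ALDHdim libraries 1 to 5. ALDHbr 3 was lowest and the others lay between 363 and 438 CPM, with a log2 fold change of −0.01 (SE 0.124). Atp5b, the beta subunit that holds the catalytic sites and the most abundant of complex V, stood at 500.3, 557, 449, 522 and 422 CPM in ALDHbr libraries 1 to 5 and 466, 478, 484, 513 and 543 CPM in ALDHdim libraries 1 to 5. ALDHbr 2 was highest and ALDHbr 5 lowest, and the log2 fold change was −0.02 (SE 0.127) with an interval of −0.29 to 0.25. Atp5c1, the gamma subunit of the rotating central stalk, ranged over 203 to 316 CPM with a log2 fold change of 0.16 (SE 0.132).

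Against this, Atp5e, the short epsilon subunit of the same central stalk, stood at 306, 549.6, 657, 435 and 506 CPM in ALDHbr libraries 1 to 5 and 369.8, 300.2, 439, 357 and 366 CPM in ALDHdim libraries 1 to 5; it was picked out after its values were seen. ALDHbr 3 was highest and ALDHdim 2 and ALDHbr 1 lowest, and the log2 fold change was 0.42 (SE 0.179). The ratio of Atp5e to Atp5a1 in CPM was 0.705 in ALDHbr 1 and 1.90 in ALDHbr 3, a range of 2.70-fold inside the ALDHbr group. In ALDHdim that ratio averaged 0.899 ± 0.111 (SD, n = 5).

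The 12 tested genes of Fo and the peripheral stalk had a score range of 0.64, from −0.32 in ALDHbr 1 to 0.325 in ALDHbr 2, with 10 higher and 2 lower. Atp5k, subunit e at the contact between paired complexes, had the smallest unadjusted p of all members and stood at 77.9, 143, 131, 90.5 and 121 CPM in ALDHbr libraries 1 to 5 and 80.2, 71.1, 91.0, 85.9 and 80.2 CPM in ALDHdim libraries 1 to 5. ALDHbr 2, 3 and 5 lay above every ALDHdim library, and ALDHbr 1 lay below most of them. The log2 fold change was 0.44 (SE 0.16) with an interval of 0.10 to 0.78 and an adjusted p of 0.999 in edgeR's quasi-likelihood test with Benjamini-Hochberg adjustment. Atp5md, a small subunit of the same membrane part, had the widest spread of the complex and stood at 60.8, 170.2, 145, 105 and 121 CPM in ALDHbr libraries 1 to 5 and 78.1, 64.1, 126, 85.0 and 76.4 CPM in ALDHdim libraries 1 to 5. ALDHbr 1 and ALDHdim 2 were lowest and ALDHbr 2 and ALDHbr 3 highest, and the log2 fold change was 0.46 (SE 0.245).

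The c-ring, which turns as protons pass, is encoded by 3 genes whose mature proteins are the same. Atp5g3 supplied 79.2 ± 2.99% of their counts, Atp5g1 14.8 ± 2.87% and Atp5g2 6.02 ± 0.83% (SD over 10 libraries). Atp5g3 stood at 424, 497, 419, 493 and 481.5 CPM in ALDHbr libraries 1 to 5 and 465, 440.4, 519.7, 520.4 and 519.7 CPM in ALDHdim libraries 1 to 5. The values lay close together in both groups, and the log2 fold change was −0.09 (SE 0.124). Atp5g1 stood at 69.0, 121, 124, 77.1 and 79.1 CPM in ALDHbr libraries 1 to 5 and 76.7, 75.2, 87.6, 85.9 and 99.4 CPM in ALDHdim libraries 1 to 5. It was high in ALDHbr 2 and ALDHbr 3, where its share of the c-ring counts reached 21.4% in ALDHbr 3, and its log2 fold change was 0.11 (SE 0.17). Atp5g2 ranged over 26.3 to 42.5 CPM, with a log2 fold change of 0.20 (SE 0.16).

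Of the matched genes that are no subunit, Cox7a2l, an assembly factor for supercomplexes, ranged over 154.5 to 317 CPM with a log2 fold change of 0.30 (SE 0.166). Ndufa4l2, a relative of Ndufa4 known to respond to low oxygen, was scarce, at 7.82 to 26.7 CPM, with a log2 fold change of −0.09 (SE 0.258). Cox5b-ps, with 7 counts, fell under the filter together with Cox7a1, Cox8b, Cox7b2 and Cox8c. Many subunit genes have near-identical processed copies in the genome. The 13 symbols that match the pattern under another biotype held 60 counts in all, and rules for counting reads with several matches were not given in the sources used here.

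Spread and fold change both went with the length of the coding sequence. Across the 80 tested members with a coding length, Spearman's rho between that length and the SD of log2 CPM was −0.46, and between that length and the log2 fold change it was −0.46. These correlations run across genes that share the same 10 libraries, so they are given as descriptions. Over all 10489 tested genes with a coding length, the values were 0.15 and −0.20. The members' mean CPM had a rho of only −0.11 with length. The 20 shortest members, of 156 to 291 nt, scored −0.27, 0.38, 0.31, −0.03 and 0.08 in ALDHbr 1 to 5 and −0.19, −0.24, 0.13, −0.10 and −0.07 in ALDHdim 1 to 5. The 20 longest, of 636 to 2181 nt, scored −0.09, 0.125, 0.06, −0.02 and −0.05, then −0.02, −0.12, 0.01, 0.03 and 0.06. The ranges were 0.65 and 0.245, and 19 of the 20 short members but 11 of the 20 long members were higher in ALDHbr. Complex II lies toward the long end, with a median coding length of 676.5 nt, against 447 nt for complex I, 300 nt for complex III, 274.5 nt for complex IV and 423 nt for complex V.

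**Figure D5:**
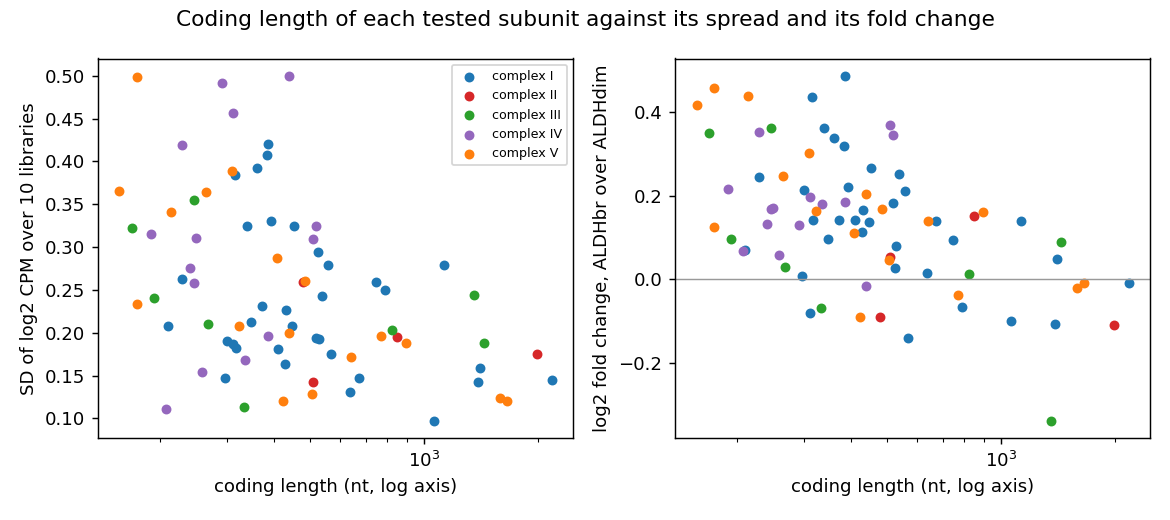
Coding length of the tested subunits on a log axis against the SD of log2 CPM over the 10 libraries (left) and the log2 fold change, ALDHbr over ALDHdim (right), 1 point per gene, coloured by complex. Both fall away with length. The rho is −0.46 for each over the 80 tested members with a coding length, which include genes not drawn here, such as Cox7a2l and Ndufa4l2. The median SD is 0.313 in the 20 shortest of these members and 0.173 in the 20 longest.

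Short genes outside the respiratory chain showed the same order of libraries. The 531 other tested genes with a coding length no longer than the members' median of 409.5 nt scored −0.21, 0.18, 0.18, 0.01 and 0.075 in ALDHbr 1 to 5 and −0.06, −0.17, 0.04, −0.03 and −0.025 in ALDHdim 1 to 5. Of these, 72.1% were higher in ALDHbr, with a median of 0.11. Over all 81 tested members, which include longer genes, the values were 80.2% and 0.14. Of the 20 shortest members, 19 were higher, with a median of 0.17. The 9878 other tested genes of longer coding length were higher in 50% of cases, with a median of 0. This length limit was chosen after the members' lengths and values were seen. Over all tested genes, the rho between coding length and centred level was 0.33 in ALDHbr 1, −0.27 in ALDHbr 2, −0.19 in ALDHbr 3 and 0.26 in ALDHdim 2. Among members it was 0.34, −0.38, −0.46 and 0.31. In ALDHbr 4 and 5 the rho was −0.08 and −0.06 over all tested genes and 0.06 and −0.22 among members. In ALDHdim 1, 3, 4 and 5 it was 0.16, −0.08, 0.09 and 0.04 over all tested genes. The members' values there were 0.38, −0.33, 0.32 and 0.29. RNA quality values and reads were not used here, and the part of transcript length in the members' differences was not tested.

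Genes that work with the subunits were taken from lists written by textbook role. Of the electron carriers and subunits outside the symbol rule, 10 of 11 tested were higher in ALDHbr, with a median of 0.15; Cyc1, the cytochrome c1 of complex III, ranged over 80.2 to 121 CPM, and Ndufab1, the acyl carrier protein in complex I, over 81.2 to 141 CPM. Of the assembly factors, 26 of 41 tested were higher and 15 lower (median 0.08), and their score was −0.18 in ALDHbr 1 and −0.17 in ALDHdim 2, the 2 libraries where the members were lowest too. It was highest in ALDHbr 3 at 0.20, with 0.08 in ALDHbr 2, where the members were highest. Of the subunits encoded by mitochondrial DNA, 2 of 10 tested were higher and 8 lower, with a median of −0.06. Their score was −0.515 in ALDHbr 1, 0.15 in ALDHbr 2 and 0.11 in ALDHbr 3, low and high in the same libraries as the nuclear members. It was 0.12 in ALDHdim 2, where the nuclear members were low, and highest in ALDHdim 3 at 0.28, while the summed level was highest in ALDHbr 2 at 41580 CPM. None of the genes of these lists, the regulators and citric acid cycle enzymes included, passed the threshold in edgeR's quasi-likelihood test, and 0 of them had an unadjusted p under 0.05.

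Of 12 tested factors that regulate mitochondrial genes, 3 were higher and 9 lower, with a median of −0.03. Their score was −0.34 in ALDHbr 2, where the subunits stood highest, and it rested there on scarce genes in the shallowest library. Polrmt, the mitochondrial RNA polymerase, had 0 CPM in ALDHbr 2, and Ppargc1a and Pprc1 had 5.87 CPM each. Esrra at 21.5 CPM, Tfb2m at 13.7 CPM and Yy1 at 121 CPM were above their means there, and the sum over the list was 329 CPM in ALDHbr 2 against 340 to 401 CPM in the other 9 libraries. Nrf1, the factor whose letters are marked in the Ndufb4 promoter, ranged over 16.2 to 28.3 CPM, Gabpa over 28.5 to 41.4 CPM, and Ppargc1a, the coactivator of mitochondrial biogenesis, over 5.87 to 23.3 CPM. The enzymes of the citric acid cycle, which feed complex I and share complex II, stayed within −0.07 to 0.09 in score, with 4 of 13 higher, 9 lower and a median of −0.02.

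Markers of mitochondria-rich cells moved between libraries as well, in some libraries along with the subunits and in others not. Alveolar type 2 markers, all 6 tested, scored 0.42 in ALDHbr 2 and 0.42 in ALDHdim 2, the libraries where the members' scores were 0.27 and −0.19. Ciliated cell markers, all 7 tested, scored 0.40 and 0.18 in these libraries, and −0.23 in ALDHbr 1 and 0.23 in ALDHbr 3, where the members scored −0.19 and 0.19. Fibroblast and matrix markers scored −1.43 in ALDHbr 2 and −1.02 in ALDHdim 2. Their sums were 483 CPM in ALDHbr 2 and 638 CPM in ALDHdim 2, against 677 CPM in ALDHbr 3 and 1426 to 2947 CPM in the other 7 libraries. Summed over the group, ciliated markers ran from 571.5 to 1393 CPM in ALDHbr and 695.5 to 1037 CPM in ALDHdim, and type 2 markers from 23650 to 49540 CPM and 20850 to 40600 CPM. In ALDHbr 2 and ALDHdim 2 alike the type 2 markers were high and the fibroblast markers low, while the respiratory chain members stood at opposite ends. Other markers set these libraries apart: neutrophil markers scored −0.02 in ALDHbr 2 and 1.95 in ALDHdim 2, alveolar macrophage markers 0.88 and 0.13, and type 1 cell markers 0.41 and 0.09. The part of cell makeup in the members' levels was not tested.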

How the data were processed

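The deposited lung table gives unnormalized whole-number counts of 33347 genes in 10 libraries (5 ALDHbr, 5 ALDHdim). Per the labels' protocols, libraries were made by BRB-seq from total RNA, with an oligo-dT primer, a molecular identifier of 10 nt, a barcode of 9 nt and an RNA read of 81 nt. Per the submitters' processing notes, the tools were featureCounts 2.0.1, HISAT2 2.2.1, Trim Galore 0.6.7, UMI-tools and DESeq2, and the builds GRCm38 and GRCh38. Their roles, the collapsing of identifiers, the use of strand and the annotation were not given in the sources used here, so PCR copies or antisense reads may add to counts. Totals ran from 588063 to 2002947 counts.

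Genes were kept by edgeR's filterByExpr (group as design, minimum count 10), which left 10844 genes with 97.3% of counts. The quasi-likelihood test of edgeR 4.0.16 (R 4.3.3; robust glmQLFit, glmQLFTest) followed TMM scaling, and p-values were adjusted by Benjamini-Hochberg over all tested genes at a threshold of 0.05. The fit's F statistic and the fold change gave each standard error and 95% interval. CPM, and log2 CPM with a prior count of 2 for the scores, were computed here from the deposited counts. Coding lengths came from GENCODE mouse release M21 on GRCm38, in which all 33347 identifiers were found, and promoter windows from RefSeq.

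Every complex's members of smallest p in each direction, of highest mean CPM and of largest spread are named, with the redox and catalytic core subunits and the isoforms from separate genes; 1 member is not reported here by name. The members, gene lists and markers were chosen with earlier results of these data known. Alternatives were other scalings, filters and tools (DESeq2 1.42.0, limma 3.58.1), the replicate number as a term, removal of blood, immunoglobulin and mitochondrial genes, and leaving out libraries. Plots were drawn with matplotlib 3.10.9.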

Additional observations from a re-analysis of the deposited data

Results flagged for a closer look

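A group's highest or lowest library stood far from the other 4 in 5 of 92 sets of 5 values, where chance gives about 1 in 20, or 4.6. Each gap is given as its share of the group's whole range in CPM. Sdhb stood at 195.6 CPM in ALDHbr 2 where the rest of its group held 127.9 to 146 CPM (0.730 of the range). Ndufs7 was also high in ALDHbr 2, at 146.7 CPM against 109 to 119 CPM (0.737). Atp5g2 was high in ALDHbr 5, at 42.48 CPM against 37.2 to 38.6 CPM (0.724). Ndufb4 was high in ALDHdim 3, at 168.4 CPM against 124.9 to 137 CPM (0.727). Ndufv1 was low in ALDHdim 4, at 56.42 CPM against 69.2 to 73.2 CPM (0.765).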

How the results depend on the processing

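No respiratory chain member passed the threshold in any alternative run, and the medians over all members and by complex and the complex scores moved by less than the spread between replicates. Over all genes, 185 passed with no low-count filter, 0 of them members. Without any 1 library the members' median ran from 0.06 (without ALDHbr 2) to 0.20 (without ALDHbr 1). The share of members higher was 66.7% with no filter, 76.5% with DESeq2, 74.1% without ALDHbr 3 and 5 together and 70.4% without ALDHbr 2. With no filter and with DESeq2 the median over all 33347 genes was 0.22 and 0.28, and that over the 10844 genes of the reported fit −0.05 and −0.01. In either direction, 8 of 81 members had an unadjusted p under 0.05 in the reported fit (7 higher), beside 402 of all 10844 genes. Members numbered 23 without ALDHbr 1 (22 higher, beside 1141 of 11024 genes), 2 without ALDHbr 2 (1 higher, 406 of 11080) and 2 without ALDHbr 3 (1 higher, 272 of 10998). They numbered 6 without ALDHbr 4 (6 higher, 479 of 11021), 4 without ALDHbr 5 (4 higher, 274 of 11011) and 0 without ALDHbr 3 and 5 together (279 of 11348). Without ALDHdim 1 they numbered 3 (3 higher, 303 of 11035), and without ALDHdim 2 they numbered 5 (4 higher, 421 of 11029). Without ALDHdim 3 they numbered 9 (9 higher, 437 of 11063). Without ALDHdim 4 they numbered 1 (1 higher, 305 of 11060), and without ALDHdim 5 they numbered 5 (4 higher, 359 of 11029).

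Same-numbered samples correlated by 0.062, 0.366, 0.15, 0.259 and 0.281 in their deviations from the group means. Samples 2 and 3 matched their own number best in both directions. ALDHdim 1, ALDHdim 4 and ALDHbr 5 also matched their own number best, while ALDHbr 1, ALDHbr 4 and ALDHdim 5 did not. The labels name no shared source and the pair numbered 1 had a correlation near 0, so the numbers were not used as a pairing, which these values do not settle. With the replicate block 0 members passed and the members' median was 0.14. In either direction, 11 of 81 members had an unadjusted p under 0.05 (10 higher), against 8 without the block. Of all 10844 genes, 727 had such a p with the block and 402 without it.

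Of 760 alternative log2 fold changes of the named members, 52 had the other sign. Without ALDHbr 3 and 5 together the values were Atp5a1 0.083, Atp5b 0.085, Cox6b1 −0.083, Cox6b2 −0.042, Ndufs8 −0.036, Sdha 0.022, Sdhc −0.013 and Uqcrfs1 −0.105. With no filter they were Cox6b1 −0.016, Ndufs8 −0.052, Sdhc −0.014, Uqcrfs1 −0.057 and Uqcrh −0.048. With DESeq2 they were Ndufs8 −0.009 and Uqcrfs1 −0.006, and with limma-voom Cox5a 0.128 and Ndufa4l2 0.065. Leaving out each library in turn gave ranges of −0.047 to 0.048 for Atp5a1, −0.074 to 0.03 for Atp5b, −0.011 to 0.206 for Atp5g1, −0.287 to 0.117 for Cox5a, −0.052 to 0.342 for Cox6a2, −0.217 to 0.097 for Ndufa4l2, −0.055 to 0.061 for Ndufs1, −0.199 to 0.041 for Ndufs3, −0.028 to 0.063 for Ndufs8, −0.044 to 0.184 for Ndufv2, −0.031 to 0.103 for Sdhc, −0.189 to 0.015 for Sdhd, −0.074 to 0.089 for Uqcrfs1 and −0.111 to 0.098 for Uqcrh. The cause of these changes was not tested.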
